A study of Mus musculus with 2 samples.

Results

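The transcripts of 6 growth factor receptor genes of the myeloid lineages, Csf1r, Csf2ra, Csf2rb, Csf3r, Flt3 and Kit, were followed through the cell classes of mouse spleen. They were chosen by name, as receptors through which progenitors, neutrophils, monocytes and dendritic cells (DCs) receive growth signals, and are 6 of the 26124 genes counted. Spleen cells of 1 control mouse and 1 mouse of the Berkeley model of sickle cell disease (SCD) were profiled by droplet-based single-cell RNA sequencing with unique molecular identifiers (UMIs), to ask how splenic phagocytes differ under chronic hemolysis. Red cells had been lysed and cells other than DCs depleted by negative selection with a Dynabeads kit, so the cell shares depend on that enrichment. With 1 mouse per group there was no replicate check and no test between groups, and every difference given is between these libraries only.

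Both mice were homozygous for Hbatm1Paz, a targeted deletion of the mouse alpha globin genes. The control, named wild-type as in the labels, was heterozygous for Hbbtm1Tow and hemizygous for the transgene Tg(HBA-HBBs)41Paz, and does not sickle although it carries the sickle transgene. The SCD mouse was homozygous for Hbbtm1Tow and for the transgene. The strain has a mixed genetic background. Mice were 12 to 16 weeks old and had no treatment, and the labels call the controls littermates.

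As background, Csf3r is the receptor for G-CSF, the cytokine that drives neutrophil production, and Csf1r is the receptor tyrosine kinase for M-CSF and IL-34, on which monocytes and macrophages depend. Csf2ra encodes the ligand-binding chain of the GM-CSF receptor, and Csf2rb the signalling beta chain that it shares with the IL-3 and IL-5 receptors. Flt3 and Kit are receptor tyrosine kinases of early progenitors. Flt3 is retained in the DC lineage, which needs FLT3 ligand, while Kit, the receptor for stem cell factor, also acts in erythroid progenitors and mast cells.

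Csf3r and Flt3 had the most opposed profiles among the members over cell classes, so the 140 bases just before the annotated start of each are shown, 5′ to 3′ on the gene's strand, from the RefSeq promoter table (GRCm38.p6). The Csf3r stretch is chr4:126024410-126024549 on the plus strand and the Flt3 stretch is chr5:147400490-147400629 on the minus strand.
Csf3r: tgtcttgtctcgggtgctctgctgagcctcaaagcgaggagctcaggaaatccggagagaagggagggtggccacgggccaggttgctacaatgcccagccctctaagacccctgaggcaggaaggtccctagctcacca
Flt3: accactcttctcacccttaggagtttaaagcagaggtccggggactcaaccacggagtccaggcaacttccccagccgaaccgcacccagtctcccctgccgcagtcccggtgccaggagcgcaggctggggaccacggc
A search on both strands for the core letters of PU.1 (GAGGAA), C/EBP (TTNNGCAA), GATA factor (AGATAA) and RUNX (TGTGGT) sites found no match in either stretch, nor in the same stretches of Csf2ra and Kit, so no base is in capitals. Of all 32851 promoter stretches of that length, 13.5% held the PU.1 letters, 5.04% the C/EBP letters, 5.26% the GATA letters and 7.83% the RUNX letters. No match says only that these letters are not in these windows.

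In GRCm38 coordinates (GENCODE annotation), Csf3r lies on chromosome 4 from 126024550 to 126044440 on the plus strand. Flt3 lies on chromosome 5 from 147330741 to 147400489 on the minus strand and Kit on the same chromosome from 75574916 to 75656722 on the plus strand. Csf2ra lies on chromosome 19 from 61223957 to 61228429 on the minus strand, and Csf2rb on chromosome 15 from 78325752 to 78353847 on the plus strand. Of the 91-base words in the last 500 bases of the transcripts, 3.53% of the Csf2rb words were shared with its neighbour and near-copy Csf2rb2 and 1.14% of the Csf3r words with AC105061.2, so the split of reads between these genes is in part uncertain. No word of the other 4 members was shared.

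After filtering, 9718 of 10845 wild-type and 11855 of 13447 SCD cells remained, with 79517199 and 172100986 UMIs and medians of 5156.5 and 9065 UMIs per cell. The libraries shared 88 barcodes. Of these, 68 stayed in the wild-type library, with a median of 101267 UMIs and 6.08% of its UMIs, and 38 in the SCD library, with a median of 7125.5 and 0.401%. Levels are given as counts per 1000000 UMIs (CPM). Hbb-bs stood at 1765 and 16.3 CPM and Hbb-bt at 512 and 15.6 CPM, in the direction of the labels, while Hba-a1 was counted at 926 and 1289 CPM although both mice are labelled as lacking it. The cells fell into 65 clusters, grouped into classes by marker genes and called X-like, and the members were left out of the clustering. Neutrophil-like cells were 44.8% of wild-type and 61.8% of SCD cells, and conventional DC-like cells, the target of the enrichment, 23.7% and 4.72%. Defining markers were found in both libraries in the classes checked, for example Xcr1 at 544 and 642 CPM in cDC1-like cells and Ccr2 at 1364 and 1307 CPM in classical monocyte-like cells. Some of them differed between the libraries. In mature neutrophil-like cells Retnlg stood at 8254 and 26958 CPM and Il1b at 3551 and 1680 CPM, in opposite directions, in promyelocyte-like cells Elane at 6822 and 4699 CPM, and in non-classical monocyte-like cells Ace at 1378 and 891 CPM.

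Summed over all kept cells, each of the 6 receptors had a lower level in the SCD library, and no pair of intervals overlapped. Brackets give exact 95% intervals, which cover counting error only. Levels with overlapping intervals can still have a ratio that differs by more than counting error. Flt3 had the lowest ratio in the main setting, 0.25 (0.2395 to 0.261), and was 75.6 CPM (73.7 to 77.5) for the wild-type and 18.9 CPM (18.25 to 19.6) for the SCD mouse. Csf3r was 475 CPM (470.5 to 480.1) for the wild-type and 158 CPM (156.5 to 160.3) for the SCD mouse, with a ratio of 0.333 (0.328 to 0.3385). These were the lowest ratios of the 6 in the main setting, and the order depended on the processing. Kit was below both with at most 5000 genes per cell, as means over cells and thinned. It was below Csf3r with at least 1000 genes, and Csf3r was the lowest with a pseudocount of 20. Kit was 88.9 CPM (86.8 to 90.98) for the wild-type and 35.1 CPM (34.2 to 36.0) for the SCD mouse, with a ratio of 0.395 (0.382 to 0.409). Its log2 ratio of -1.23 was -1.93 with at most 5000 genes per cell. Csf1r was 179.7 CPM (177 to 183) for the wild-type and 77.7 CPM (76.4 to 79.0) for the SCD mouse, with a ratio of 0.4325 (0.422 to 0.443). These 4 genes were past a 2-fold difference and both chains of the GM-CSF receptor were not. With median-of-ratios scaling Csf1r (log2 ratio -0.88) and Kit (-0.96) were no longer past it, which left 2 of 6. The beta chain Csf2rb was 150 CPM (147 to 153) for the wild-type and 82.7 CPM (81.3 to 84.05) for the SCD mouse, with a ratio of 0.551 (0.538 to 0.565). The alpha chain Csf2ra was 142 CPM (139.7 to 145) for the wild-type and 105 CPM (103.2 to 106) for the SCD mouse, with a ratio of 0.7355 (0.718 to 0.753). On the scale of log2 of CPM plus 5, 4 of 6 members were at least 2-fold lower, where 11.5% of the 3523 expressed genes were, and 0 of 6 at least 2-fold higher, where 2.24% were. The median log2 ratio was -1.19 over the members and -0.13 over all expressed genes. In whole-library sums, fewer cells of a type and less RNA per cell cannot be told apart.

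The share of cells with at least 1 UMI was compared after each cell was thinned to 1000 UMIs, which left out 158 wild-type and 68 SCD cells. In this order of libraries, Csf3r was found in 42.7% and 25.0% of thinned cells, Csf1r in 17.4% and 8.43% and Csf2rb in 18.1% and 11.6%. Csf2ra was found in 16.7% and 12.7%, Flt3 in 6.16% and 2.19% and Kit in 5.70% and 1.88%. All 6 thinned shares were lower in the SCD library. Without thinning, where the deeper SCD cells had more chances of a UMI, the order turned for Csf2ra (54.5% and 60.9%), Csf2rb (56.1% and 56.8%) and Csf3r (62.1% and 65.9%). It did not turn for Csf1r (38.4% and 30.04%), Flt3 (26.55% and 10.9%) and Kit (22.2% and 15%).

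**Figure D1:**
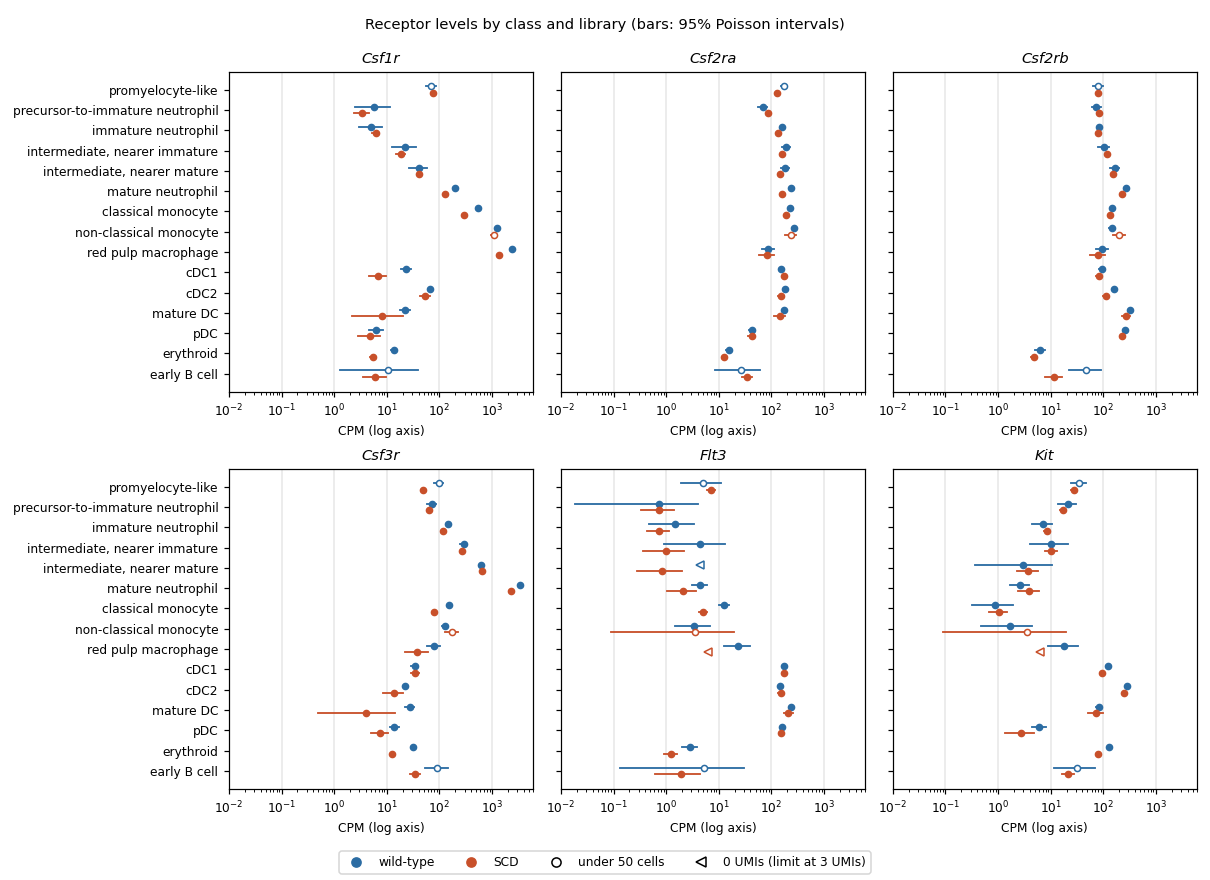
Level of each receptor in CPM (horizontal log axis) in each cell class (vertical axis), with wild-type and SCD libraries as separate points and lines for exact 95% Poisson intervals, counting error only. Csf3r peaks in mature neutrophil-like cells at 3330 and 2291 CPM and Csf1r in red pulp macrophage-like cells at 2440 and 1340 CPM, and Kit has its highest level in cDC2-like cells at 280.0 and 246 CPM among classes with at least 50 cells in each library.

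Csf3r, the G-CSF receptor, was counted mainly in neutrophils, and its level was highest in mature ones. Neutrophil-like cells held 83.3% of its wild-type and 80.8% of its SCD UMIs. In promyelocyte-like cells, granule-making precursors named from genes such as Mpo and Elane, it stood at 97.4 and 48.1 CPM in 37 wild-type and 446 SCD cells. No ratio is given for a class with under 50 cells in a library. Of these SCD cells, 277 lay in a cluster that scored 0.707 for promyelocytes and 0.598 for monocyte precursors. The class may therefore not be of the neutrophil line alone. Between dividing precursors and immature neutrophils Csf3r was 71.0 CPM (57.6 to 86.5) for the wild-type and 63.7 CPM (59.3 to 68.3) for the SCD mouse, with a ratio of 0.897 (0.727 to 1.12). These intervals overlapped. In immature neutrophil-like cells, which carry the granule genes Ltf and Camp, it was 144 CPM (132 to 158) for the wild-type and 115 CPM (111 to 119.6) for the SCD mouse, with a ratio of 0.799 (0.726 to 0.881). The class between immature and mature cells and nearer to the immature held 289 and 271 CPM, and the one nearer to the mature 617 and 634 CPM. In both of these the intervals overlapped. In mature neutrophil-like cells it was 3330 CPM (3293 to 3368) for the wild-type and 2291 CPM (2251 to 2332) for the SCD mouse, with a ratio of 0.688 (0.674 to 0.703). This value depended on the processing. The log2 ratio was -0.54, and ran from -1.16 with at most 5000 genes per cell to -0.30 with median-of-ratios scaling. Over all neutrophil-like cells together the ratio was 0.162, below that of each stage given, and mature cells were 3732 of 4356 neutrophil-like cells in the wild-type but 1796 of 7329 in the SCD library. The log2 ratio over all of them was -2.61, or -1.81 when each cell was thinned.

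The mature neutrophil-like cells lay in different clusters in the libraries. Of the 1796 SCD cells, 1200 fell in 1 cluster, led by Cstdc4, Stfa2l1 and Ifitm1, that held 114 of the 3732 wild-type cells. In that cluster Csf3r stood at 2728 and 1956.5 CPM, with a ratio of 0.717 (0.670 to 0.769). The other 4 mature clusters held most of the wild-type cells, and the interval of each of their ratios included 1. The cluster led by Il1b, Dusp1 and H2-Q10 stood at 3461 and 3616.5 CPM, a ratio of 1.045 (0.982 to 1.11). The cluster with Ifit1 and Oasl2 among its leading genes stood at 3321 and 3194 CPM, a ratio of 0.962 (0.906 to 1.02). In the cluster led by Cxcl2 and Clec4n the ratio was 0.980 (0.9235 to 1.04), and in the one led by Stfa2l1 and Dusp1 1.06 (0.962 to 1.17). With SCD cluster levels weighted by wild-type shares of UMIs, the ratio over neutrophil-like cells was 0.997, over clusters with 91.3% of the wild-type UMIs, and 0.696 when classes were weighted in that way. A cluster mostly of 1 library may be that library rather than a cell state.

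The thinned share of mature neutrophil-like cells with a Csf3r UMI was 95.4% and 86.9%, and 99.6% and 99.0% without thinning. In pDC-like cells, which should lack the gene, it was 1.94% and 1.30% thinned, at median depths of 10966 and 8746 UMIs against 2327 and 2737 in mature neutrophils. Erythroid-like cells, which should also lack it, held 31.1 and 12.4 CPM in all. Their cluster led by Hbb-bs had median depths of 7903 and 6212 UMIs. That gene stood at 1765 and 16.3 CPM in the whole libraries, so its lead rests mainly on wild-type counts. The cluster held Csf3r at 149 CPM (116 to 187) and 19.3 CPM (12.5 to 28.5). In the wild-type library it lay above the DC classes and the main erythroid cluster, where pDC-like cells held 14.0 and 7.49 CPM, cDC2-like cells 22.5 and 13.6 CPM, cDC1-like cells 33.9 and 34.2 CPM and the main erythroid cluster 26.8 and 9.54 CPM. The cause was not tested. Early B-like cells, of which the wild-type library had 21, held 90.3 and 34.05 CPM. Immature neutrophil-like cells had higher levels than all of these in each library, except that in the wild-type library they lay within the interval of the erythroid cluster led by Hbb-bs. The wild-type levels of promyelocyte-like cells and of the class before immature cells lay below that interval.

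In classical monocyte-like cells Csf3r was 151 CPM (142 to 161) for the wild-type and 80.2 CPM (76.7 to 83.7) for the SCD mouse, with a ratio of 0.530 (0.491 to 0.571). Both levels lay above those of pDC-like and cDC-like cells, and the wild-type one within the interval of the erythroid cluster led by Hbb-bs. In the monocyte cluster led by Apoe and Tppp3 the ratio was 0.917 (0.774 to 1.08), and the cluster led by Vcan and Fn1 stood at 135 and 120.5 CPM. The intervals of both clusters overlapped. In the cluster led by F13a1 and Itga1 Csf3r was lower in the SCD library, at 106 CPM (82.0 to 134) and 58.0 CPM (52.4 to 63.95), and so it was in the one led by Hist1h2ae, at 82.95 CPM (65.8 to 103.2) and 39.55 CPM (35.3 to 44.2).

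**Figure D2:**
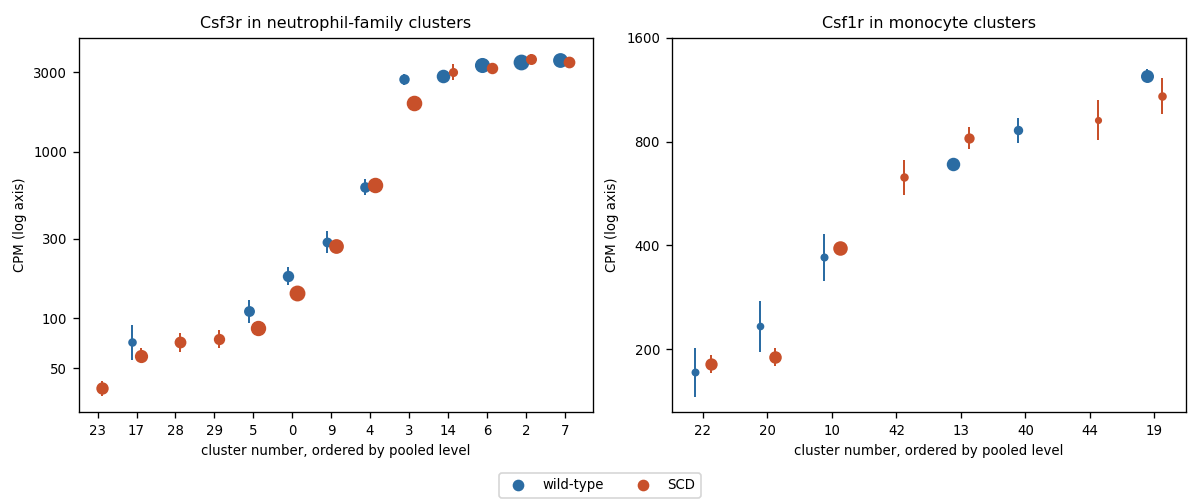
Csf3r in clusters of the neutrophil-like classes (left) and Csf1r in clusters of the monocyte-like classes (right), in CPM on log axes, with clusters ordered by their pooled level, larger points for more cells and bars for exact 95% Poisson intervals. Clusters with under 20 cells in a library have no point for it. Cluster 3, at 2728 and 1956.5 CPM, is the mature neutrophil cluster where the Csf3r intervals lie apart.

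Csf1r, the M-CSF receptor, lies on chromosome 18 from 61100598 to 61132149 on the plus strand. It overlaps Hmgxb3 on the opposite strand, as Flt3 overlaps Gm26597. Its level was highest in red pulp macrophage-like cells, the iron-recycling macrophages of the spleen, where it was 2440 CPM (2317 to 2567) for the wild-type and 1340 CPM (1237 to 1448) for the SCD mouse, with a ratio of 0.549 (0.4995 to 0.603). These were 275 and 156 cells with low median depths of 1308 and 1543.5 UMIs. Non-classical monocyte-like cells, the patrolling subset, came next and were 1240 CPM (1195 to 1286) for the wild-type and 1083 CPM (966 to 1210) for the SCD mouse. These intervals overlapped, and no ratio is given since the SCD library had 48 such cells, against 369 in the wild-type library.

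In classical monocyte-like cells, the inflammatory subset, Csf1r was 553 CPM (535 to 570.5) for the wild-type and 291 CPM (284 to 298) for the SCD mouse, with a ratio of 0.526 (0.506 to 0.5475). Here too different clusters held most cells of the class. A cluster led by Apoe, Tppp3 and Arhgef37 held 458 of the 563 wild-type but 107 of the 1425 SCD cells, and there Csf1r was higher in the SCD library, at 688.5 and 822 CPM, a ratio of 1.19 (1.11 to 1.29). The cluster with most SCD cells, 750, was led by Vcan and Fn1 and stood at 370.0 and 393 CPM. The cluster led by F13a1 and Itga1 stood at 234 and 190.5 CPM, and the one led by Hist1h2ae at 172 and 181 CPM. The wild-type library held 31 to 38 cells in these last 3 clusters, and the intervals overlapped in each. Markers of dividing cells were not used in the naming, so this class can hold dividing cells and precursors. The F13a1 cluster, with 31 wild-type and 299 SCD cells, had Cdkn3 among its leading genes. The Hist1h2ae cluster, with 36 and 269 cells, had several histone genes among them. Over all monocyte-like cells the ratio was 0.421 (0.408 to 0.434), and 1.04 with SCD cluster levels at wild-type weights.

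Among neutrophils, Csf1r was lowest in immature cells and in the class just before them. It stood at 4.98 and 6.19 CPM in immature neutrophil-like cells, with overlapping intervals. In mature ones it was 199 CPM (189.8 to 208) for the wild-type and 129 CPM (119.7 to 139) for the SCD mouse, with a ratio of 0.649 (0.594 to 0.709). Its log2 ratio of -0.60 ran from -1.14 with at most 5000 genes per cell to -0.37 with median-of-ratios scaling. The ratio was 0.552 (0.423 to 0.729) in the cluster that held most SCD mature cells, and from 0.850 to 1.32 in the other 4, whose intervals all included 1. Promyelocyte-like cells held 69.2 and 75.3 CPM. In the SCD library the promyelocyte-like cluster with Mpo, Ctsg and Cd34 among its leading genes held 101 CPM, and the one led by Elane and Ms4a3 5.19 CPM.

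Among DCs, cDC2-like cells were at 65.2 and 52.4 CPM of Csf1r, with overlapping intervals. The cDC1-like cells were at 23.2 CPM (18.8 to 28.2) and 6.88 CPM (4.64 to 9.82), which did not overlap, and pDC-like cells at 6.26 and 4.745 CPM. Erythroid-like cells, which should lack the gene, held 13.65 and 5.49 CPM in all, and their cluster led by Hbb-bs 138.5 CPM (107 to 176) and 36.2 CPM (26.6 to 48.2). That cluster lay above both cDC levels in the wild-type library and differed in the same direction as cDC1-like cells. Its part in the cDC levels was not tested. The thinned share of pDC-like cells with a Csf1r UMI was 1.04% and 0.432%, the background beside 47.5% and 26.95% of classical monocyte-like cells (98.4% and 97.7% unthinned). Median depths of the latter were 10982 and 14495 UMIs.

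**Figure D3:**
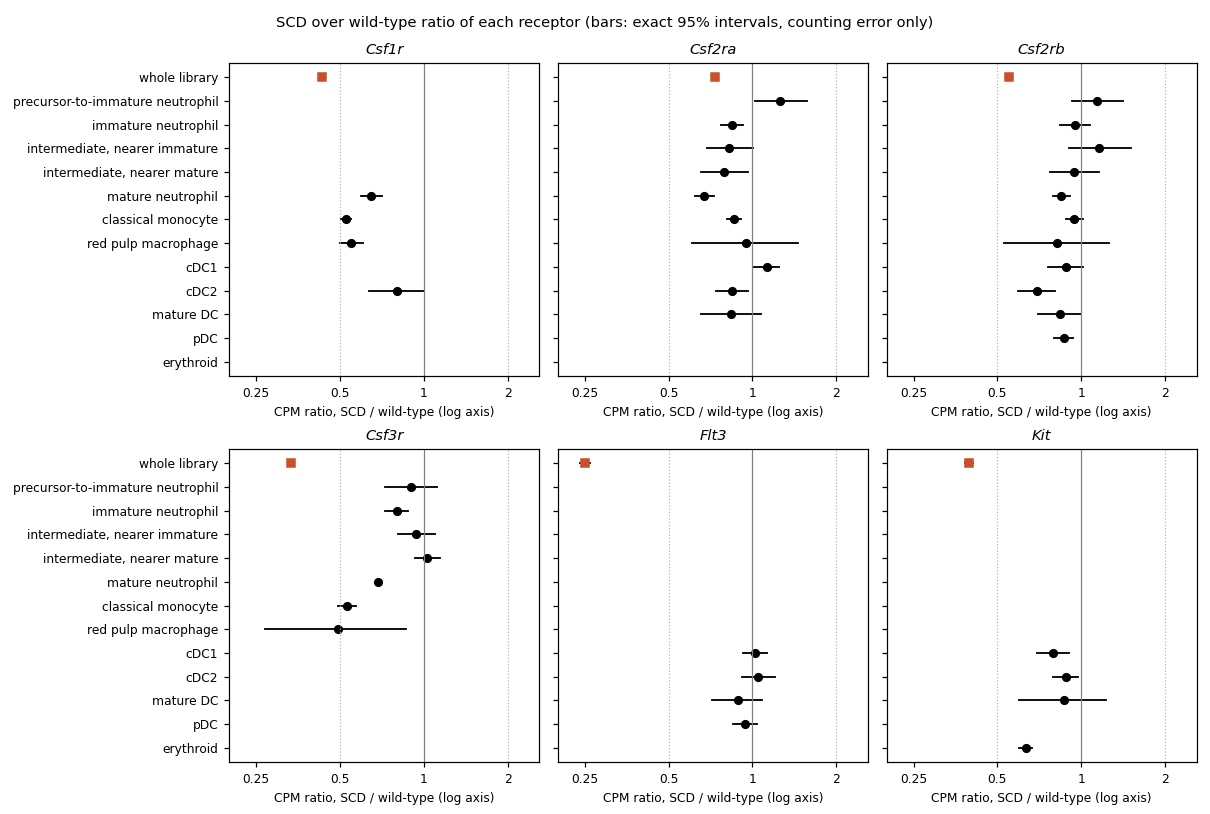
Ratio of the SCD to the wild-type level of each receptor by cell class (log axis, exact 95% interval from counts), for classes with at least 50 cells in each library. Csf3r and Csf1r lie at 0.688 and 0.649 in mature neutrophil-like cells, while Flt3 lies at 1.02, 1.05 and 0.942 in cDC1-, cDC2- and pDC-like cells.

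The GM-CSF receptor was spread over more classes. Conventional DC-like cells gave 31.2% of the wild-type UMIs of its alpha chain, Csf2ra, neutrophil-like cells 28.7% and monocyte-like cells 21.4%. In the SCD library these shares were 5.99%, 51.0% and 28.5%. Over all conventional DC-like cells Csf2ra was 174 CPM (168 to 179) for the wild-type and 166.5 CPM (157 to 177) for the SCD mouse, with a ratio of 0.959 (0.895 to 1.03). The interval of that ratio includes 1. In cDC1-like cells Csf2ra was 155 CPM (143 to 167) for the wild-type and 174 CPM (162 to 187) for the SCD mouse, with a ratio of 1.125 (1.01 to 1.25). In cDC2-like cells it stood at 180.4 and 152 CPM, a ratio of 0.844 (0.737 to 0.963), and in mature DC-like cells at 173 and 145 CPM, a ratio of 0.8405 (0.651 to 1.07). The cDC1 levels had overlapping intervals, and their log2 ratio of 0.17 was 0.0031 with at most 5000 genes per cell.

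In neutrophil-like cells Csf2ra was higher in the SCD library between dividing precursors and immature cells, at 68.8 and 86.4 CPM and a ratio of 1.255 (1.02 to 1.565). It was lower in immature cells, at 159 and 134 CPM and a ratio of 0.844 (0.770 to 0.925). In mature cells it was 238 CPM (228 to 248) for the wild-type and 159.6 CPM (149 to 171) for the SCD mouse, with a ratio of 0.6715 (0.6195 to 0.727). The ratio was below 1 in each of the 5 mature clusters, from 0.690 to 0.885, and the interval included 1 in 3 of them. Classical monocyte-like cells held 226 and 193.5 CPM, a ratio of 0.857 (0.809 to 0.908). The pDC-like cells held 42.5 and 42.7 CPM, a ratio of 1.005 (0.830 to 1.21), and erythroid-like cells 16.0 and 12.6 CPM. The erythroid cluster led by Hbb-bs held 68.2 CPM (46.95 to 95.8) and 21.6 CPM (14.35 to 31.2), so the wild-type level between dividing precursors and immature cells lay within that cluster's interval.

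The beta chain, Csf2rb, had its highest level in mature DC-like cells, the Ccr7-positive cells that carry antigen to T cells, where it was 325 CPM (308 to 344) for the wild-type and 272 CPM (229 to 322) for the SCD mouse, with a ratio of 0.837 (0.697 to 0.999). The cluster led by H2-M2 and Il4i1, with 558 and 52 of these cells, held 350.2 and 286 CPM, and the one led by Zmynd15 and Fscn1, with 70 and 34 cells, lay the other way at 163 CPM (130.0 to 201) and 255 CPM (192 to 331). The intervals overlapped in both clusters. In pDC-like cells, the interferon-producing DCs, it was 258 CPM (247 to 269.9) for the wild-type and 223 CPM (209 to 238) for the SCD mouse, with a ratio of 0.865 (0.798 to 0.937). Its near-copy Csf2rb2, an IL-3-specific beta chain of the mouse, was counted at 287 and 240.2 CPM in the same pDC-like cells and at 46.35 and 17.1 CPM in the whole libraries.

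In mature neutrophil-like cells Csf2rb was 266.5 CPM (256 to 277) for the wild-type and 226 CPM (213 to 239) for the SCD mouse, with a ratio of 0.8465 (0.789 to 0.908). With median-of-ratios scaling the log2 ratio there was 0.0015 in place of -0.24. Among earlier stages it stood at 73.9 and 84.2 CPM between dividing precursors and immature cells, 84.3 and 80.0 CPM in immature cells, and 101 and 118 CPM and 166 and 156 CPM in the classes between immature and mature. The intervals overlapped at each of these 4 stages, and the SCD value was the higher one at 2 of them. Over all neutrophil-like cells the ratio was 0.536 (0.514 to 0.5595), and 0.925 with SCD cluster levels at wild-type weights. Classical monocyte-like cells held 145 and 137 CPM, a ratio of 0.943 (0.879 to 1.01). In their cluster led by Apoe and Tppp3, however, Csf2rb was higher in the SCD library, at 153 and 216 CPM and a ratio of 1.42 (1.22 to 1.64). In cDC2-like cells it was lower, at 163 and 113 CPM and a ratio of 0.693 (0.592 to 0.807), and in cDC1-like cells it stood at 93.6 and 82.3 CPM, a ratio of 0.8795 (0.761 to 1.02).

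Few thinned cells held both chains. Of the mature neutrophil-like cells, 170 of 3687 (4.61%) in the wild-type library and 52 of 1789 (2.91%) in the SCD library had a UMI of Csf2ra and of Csf2rb. The products of the single shares were 4.645% and 2.91%, so the chains were counted together about as often as those products give. Thinned shares in mature neutrophil-like cells were 20.3% and 14.9% for Csf2ra and 22.8% and 19.6% for Csf2rb, and without thinning 40.7% and 35.4%, and 42.5% and 45.7%. In erythroid-like cells, taken as background, the thinned shares were 3.21% and 0.876% for Csf2ra and 0.803% and 0.438% for Csf2rb, at median depths of 71987 and 75072.5 UMIs.

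Flt3, the receptor of the DC lineage, had the lowest whole-library ratio of the 6 members in the main setting, though Kit or Csf3r was lower under others. Inside the DC classes the intervals of Flt3 overlapped. In cDC1-like cells, the cross-presenting subset, it was 172.5 CPM (160.3 to 185) for the wild-type and 176 CPM (164 to 189) for the SCD mouse, with a ratio of 1.02 (0.922 to 1.13). In cDC2-like cells it was 144 CPM (138 to 151) for the wild-type and 152 CPM (133 to 172) for the SCD mouse, with a ratio of 1.05 (0.916 to 1.201). In mature DC-like cells, which had the highest level of the named classes, it was 236 CPM (221 to 251) for the wild-type and 209 CPM (171 to 253) for the SCD mouse, with a ratio of 0.886 (0.717 to 1.085). The ratios of these subsets lay on both sides of 1. In pDC-like cells it was 163 CPM (154 to 172) for the wild-type and 153 CPM (141 to 166) for the SCD mouse, with a ratio of 0.942 (0.853 to 1.04). Their main cluster, with 636 and 379 cells, stood at 159 and 141 CPM, a ratio of 0.885 (0.7925 to 0.987) whose interval excluded 1, while a cluster of 2 wild-type and 46 SCD cells held 204.5 CPM in the SCD library. Over all conventional DC-like cells the ratio was 1.03 (0.960 to 1.1), and these cells held 25.6% of all wild-type and 3.77% of all SCD UMIs. The overlap does not show that the levels were alike, since the intervals cover counting error in 1 mouse per group.

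Outside DCs, Flt3 was low in neutrophils, monocytes and erythroid-like cells, but not in some unnamed clusters given below. It stood at 4.415 and 2.07 CPM in mature neutrophil-like cells, 12.4 and 4.96 CPM in classical monocyte-like cells and 2.81 and 1.22 CPM in erythroid-like cells. The thinned shares were 17.6% and 20% in cDC1-like cells and 13.9% and 14.6% in cDC2-like cells, against 0.570% and 0.224% in mature neutrophil-like cells, which should lack the gene. Without thinning they were 86.2% and 80.9%, 61.1% and 58.5%, and 1.045% and 0.6125%. Median depths were 17858 and 15804 UMIs in cDC1-like cells and 7656.5 and 7236 in cDC2-like cells.

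Unnamed and other clusters gave 19.2% of the Flt3 UMIs in the wild-type and 35.5% in the SCD library. Part of this came from clusters rich in called doublets. Clusters with 62.6% and 92.7% doublets gave 3.78% and 3.345% of the wild-type Flt3 UMIs, and one with 52.1% gave 4.86% of the SCD ones. A cluster of 70 SCD and 9 wild-type cells, led by Ighg2c, Igkc and Bcl2 and with Dntt and Ly6d also among its leading genes, held 195 CPM (175 to 217) of Flt3 in the SCD library and 10.6% of that library's Flt3 UMIs. A cluster of 42 SCD cells led by Ly6d and Cox6a2 held 225 CPM. The highest level of any cluster with at least 20 cells was 349 CPM (296 to 409), in 38 wild-type cells led by Tppp3, Cd209a and Cd209e. Clusters led by Cd209a and Clec10a, lectin genes of cDC2 and of monocyte-derived cells, were each mostly of 1 library. They stood at 207 CPM in 68 wild-type cells and 157 CPM in 44 SCD cells.

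**Figure D4:**
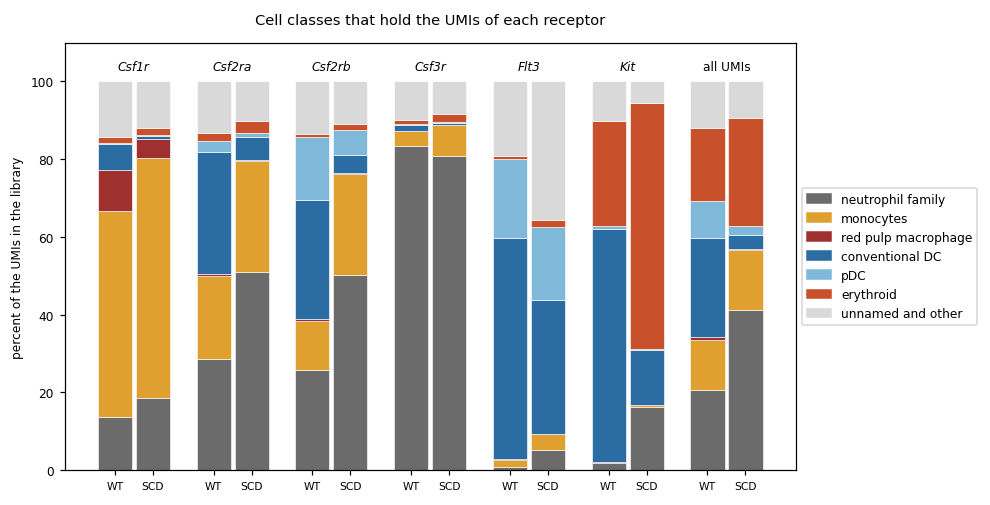
Share of each receptor's UMIs that came from each group of classes, in percent of the gene's UMIs in a library, with the share of all UMIs beside them. Conventional DC-like cells gave 60.1% of Kit UMIs in the wild-type and 14.15% in the SCD library, and erythroid-like cells 26.95% and 63.3%.

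Kit, the stem cell factor receptor, had most of its UMIs in conventional DC-like cells of the wild-type library and in erythroid-like cells of the SCD library. In cDC2-like cells it was 280.0 CPM (271 to 289.5) for the wild-type and 246 CPM (222 to 271) for the SCD mouse, with a ratio of 0.878 (0.790 to 0.974). In cDC1-like cells it was 121.5 CPM (111 to 132) for the wild-type and 96.3 CPM (87.3 to 106) for the SCD mouse, with a ratio of 0.793 (0.696 to 0.904). The cDC2 level was above the cDC1 level in both libraries, and the intervals of the subsets did not overlap. Mature DC-like cells stood at 82.5 and 71.6 CPM, a ratio of 0.867 (0.597 to 1.23), and the log2 ratio was -0.19, or -0.99 when thinned. Their cluster led by H2-M2 and Il4i1 held 94.3 and 118.5 CPM, and the cluster led by Zmynd15 and Fscn1 5.75 and 9.26 CPM. Over all conventional DC-like cells the ratio was 0.632 (0.587 to 0.6805), and 0.867 with SCD class levels at wild-type weights. The pDC-like cells held 6.12 and 2.75 CPM.

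In erythroid-like cells, which carry Klf1 and Gata1, Kit was 127.5 CPM (122 to 133) for the wild-type and 80.5 CPM (77.9 to 83.1) for the SCD mouse, with a ratio of 0.631 (0.597 to 0.667). Most of these cells, 186 of 249 and 532 of 700, fell in a cluster led by Car1, Mt2 and Bex4 that stood at 131 and 84.0 CPM, a ratio of 0.642 (0.607 to 0.680). The cluster led by Hbb-bs, Hbb-bt and Slc4a1, genes of later erythroid cells, stood at 35.1 and 8.48 CPM. Of the 249 wild-type cells 39 carried barcodes shared between the libraries, and of the 700 SCD cells 10, and without shared barcodes the log2 ratio was -0.56 in place of -0.63. With at most 5000 genes per cell, a limit that falls on the deepest cells, it was -1.53. The erythropoietin receptor gene Epor stood at 86.9 and 86.6 CPM in these cells, with overlapping intervals.

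Kit was lower in late than in early neutrophil stages, though not at every step. It stood at 34.2 and 27.3 CPM in promyelocyte-like cells, 21.0 and 17.3 CPM in the next class, 7.03 and 8.48 CPM in immature cells, 10.3 and 10.3 CPM and 2.99 and 3.72 CPM in the classes between immature and mature, and 2.65 and 3.95 CPM in mature cells. The intervals of the libraries overlapped at each of these stages. Classical monocyte-like cells held 0.867 and 1.02 CPM. T, NK or innate lymphoid-like cells were few, 39 and 12, and held 277 CPM (211 to 356.5) and 157 CPM (67.9 to 310.0). The thinned share with a Kit UMI was 25.7% and 20.3% in cDC2-like and 10.4% and 6.28% in erythroid-like cells, against 0.271% and 0.168% in mature neutrophil-like cells. Without thinning these shares were 81.5% and 76.9%, 69.5% and 78.4%, and 0.643% and 1.11%.

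No progenitor class reached 50 cells in each library, so progenitors were described in other ways. A cluster of 23 wild-type and 23 SCD cells was led by the basophil and mast cell genes Prss34, Mcpt8 and Cpa3, with Cd34 among its leading genes. It held Kit at 155 CPM (108 to 215) and 120.5 CPM (86.5 to 163.5), and Flt3 at 283 CPM (218 to 361.5) and 197 CPM (153 to 250.1). Cells with a UMI of Cd34, a surface marker of progenitors, numbered 146 in the wild-type and 448 in the SCD library, with median depths of 15086 and 31872 UMIs. Both Kit and Flt3 were found in 52 and 77 of them, Kit alone in 22 and 79, Flt3 alone in 28 and 81, and neither in 44 and 211. These counts were not thinned, and no background share was counted at these depths. Of the Cd34-positive cells 10 in the wild-type and 171 in the SCD library were promyelocyte-like. In the same order 27 and 86 were classical monocyte-like, 5 and 21 erythroid-like, and 39 and 96 lay in unnamed clusters. The rest lay in other classes, so the Cd34-positive cells are not progenitors alone.

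The whole-library ratios were nearer to 1 when the makeup of the libraries was held fixed. With the SCD level of each class weighted by the wild-type share of UMIs, the ratio was 0.660 for Csf1r, 0.821 for Csf2ra, 0.831 for Csf2rb, 0.662 for Csf3r, 0.9035 for Flt3 and 0.748 for Kit. Over clusters with at least 20 cells in each library, which held 89.95% of the wild-type UMIs, the ratios were 0.920, 0.835, 0.903, 0.934, 0.916 and 0.794 in the same order. The step from classes to clusters left the ratio of Csf2ra nearly where it was and brought those of Csf3r and Csf1r closer to 1.

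**Figure D5:**
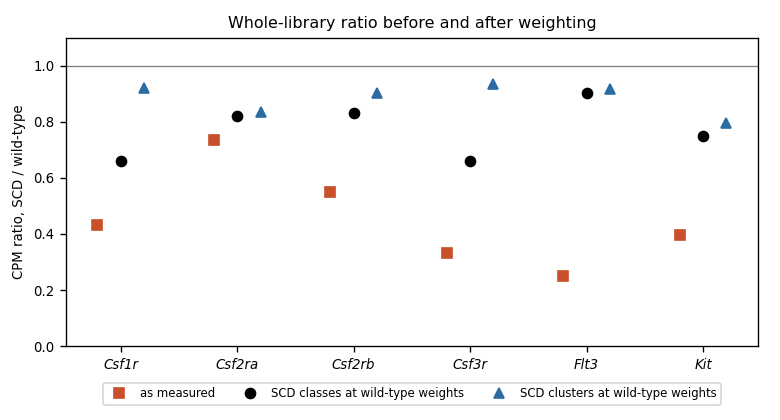
Ratio of the SCD to the wild-type level over all kept cells for each receptor, as observed, with SCD class levels at wild-type weights, and with SCD cluster levels at wild-type weights. Flt3 goes from 0.25 to 0.9035 and 0.916, Csf3r from 0.333 to 0.662 and 0.934, and Csf2ra from 0.7355 to 0.821 and 0.835.

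Within single classes no member expressed there (at least 50 CPM and 20 UMIs in a library) was past a 2-fold difference in either direction on the scale of log2 of CPM plus 5. Without the added 5 CPM, Csf3r in red pulp macrophage-like cells was past it, at 77.6 and 38.2 CPM, a ratio of 0.4915 (0.269 to 0.862), from 47 and 18 UMIs. The wild-type value was below the 149 CPM of the erythroid cluster led by Hbb-bs, which differed between the libraries in the same direction. Under some other settings Csf3r and Csf1r in mature neutrophil-like and red pulp macrophage-like cells, Csf1r in classical monocyte-like cells and Kit in erythroid-like cells were also past it. In mature neutrophil-like cells it was 0 of 4 members, where 3.13% of expressed genes were at least 2-fold lower and 1.51% at least 2-fold higher. With the background in the same order, it was 0 of 4 in classical monocyte-like cells (2.71% and 2.33%), 0 of 4 in cDC1-like cells (0.463% and 1.06%) and 0 of 5 in cDC2-like cells (0.147% and 0.411%). It was 0 of 4 in mature DC-like cells (2.44% and 2.93%), 0 of 2 in pDC-like cells (0.174% and 0.407%), 0 of 1 in erythroid-like cells (0.526% and 0.495%) and 0 of 4 in red pulp macrophage-like cells (4.87% and 2.54%). Among the earlier neutrophil stages it was 0 of 3 in immature cells (0.0544% and 0.109%) and 0 of 3 in the class before them (0.0934% and 0.374%). In the classes between immature and mature cells it was 0 of 3 (0.347% and 0.248%) nearer to the immature and 0 of 3 (0.643% and 0.841%) nearer to the mature.

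The pooled classes mix stages. Over all neutrophil-like cells Csf1r and Csf3r, 2 of 4 expressed members, were at least 2-fold lower (background 18.6%) and 0 higher (6.84%). Over all monocyte-like cells Csf1r, 1 of 4, was lower (6.01%) and 0 higher (3.65%). Over all conventional DC-like cells 0 of 4 were lower (4.82%) or higher (2.24%).

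The genes around the receptors were compared from lists of the pathway. In the whole libraries, 3 of 3 expressed sister receptor subunits were at least 2-fold lower, where 11.5% of all expressed genes were, 3 of 16 signal transducers, 3 of 6 induced target genes, 1 of 7 negative regulators and 2 of 9 lineage transcription factors. The 1 gene of these lists that was at least 2-fold higher, where 2.24% of all were, was Cebpe, a factor of granule formation in neutrophil precursors, at 51.75 and 163 CPM. The lowest was Bcl2a1b, a survival gene of the Bcl2 family, at 202 and 14.96 CPM and a ratio of 0.0740 (0.07095 to 0.07715). In mature neutrophil-like cells the median log2 ratio was -0.55 over the members, -0.37 over 15 expressed signal transducers and -0.30 over all 2524 expressed genes. No transducer was past a 2-fold difference, and Mapk3, a kinase downstream of these receptors, stood at 126.5 and 167.5 CPM. Of 5 expressed induced targets 2 were at least 2-fold lower, where 3.13% of all genes were, and the median log2 ratio was -0.96. They were the survival gene Mcl1, at 2381 and 1157 CPM and a log2 ratio of -1.04, and the cyclin gene Ccnd2, at 96.6 and 44.2 CPM and a log2 ratio of -1.05, named after their values were seen. Both lie so close to 2-fold that median-of-ratios scaling, which takes out a median of -0.24 here, ends the calls. Of 7 expressed negative regulators 1 was at least 2-fold lower. It was Socs3, an inhibitor induced by G-CSF signalling, at 168 and 64.7 CPM and a ratio of 0.385 (0.341 to 0.433). Of 8 ligands, Csf1 was the 1 expressed there. It encodes M-CSF, the ligand of Csf1r, and stood at 168 and 43.8 CPM, a ratio of 0.261 (0.227 to 0.3002). Csf1 was also among the 10 leading genes of 2 mature clusters that held mostly wild-type cells. The part of the clusters in its lower level was not tested.

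In classical monocyte-like cells the median was -0.55 over 4 members, -0.35 over 15 transducers, -0.40 over 6 negative regulators and -0.05 over all expressed genes, with no list gene past 2-fold on the scale of log2 of CPM plus 5. The lowest list gene was Cebpa, a factor of myeloid commitment, at 126 and 60.6 CPM, and the highest Id1, an inhibitor of helix-loop-helix factors, at 41.9 and 60.5 CPM. In cDC2-like cells the medians were -0.24 over 5 members, 0.04 over 16 transducers and -0.03 over all genes. In cDC1-like cells Il6st, the signalling chain of the IL-6 receptor family, stood at 77.5 and 31.4 CPM, a ratio of 0.406 (0.330 to 0.496). In pDC-like cells Runx1, a factor of early hematopoiesis, stood at 68.2 and 142 CPM, a ratio of 2.08 (1.84 to 2.345). In erythroid-like cells the lowest list gene was Myb, a progenitor factor, at 508 and 308 CPM and a ratio of 0.606 (0.589 to 0.623).

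Genes with the most similar profiles were sought among 6493 genes over 28 sums of a class in a library. These sums share libraries and depth, and the correlations are a description without a test. Flt3 was closest to H2-Oa, an MHC class II chaperone gene (Pearson r = 0.96), and Kynu was also close (0.94). Csf2ra was closest to Spi1, which encodes the transcription factor PU.1 (0.95), then Arpc2 (0.92) and Cdc42 (0.92). Csf3r was closest to Gm49368 (0.94), Slc28a2 (0.93) and Fosl2 (0.93). Csf2rb was closest to Stat3, a signal transducer of cytokine receptors (0.93), Skap2 (0.90) and Dock8 (0.89). Csf1r was closest to Zdhhc7 (0.92), Itgb5 (0.90) and Fam234a (0.90). Kit had the weakest partners, Tbrg1 (0.86), Rgs12 (0.83) and Zbtb46 (0.83), the last a transcription factor of conventional DCs. Among the members themselves the closest pair was Csf2ra and Csf2rb (0.71), and the most opposed was Csf3r and Flt3 (-0.58).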

How the data were processed

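Single-cell libraries (10x Genomics 3′ chemistry) were prepared from the DC-enriched spleen of 1 wild-type and 1 SCD mouse, each a group of 1 sample. The authors deposited UMI counts, not normalized, for each gene and barcode. Their processing notes name Cell Ranger 4.0.0, GRCm38.p6, R 4.4, Seurat 3.2.3 and Scanpy 1.6.0. Cells needed at least 500 genes, with mitochondrial counts under 15% and ribosomal counts under 30%, without the upper limit of 5000 genes that the study's methods state. Counts were scaled by scran 1.30.0 (R 4.3.3), reduced to 30 principal components on 2000 variable genes without the members, and clustered together (15 neighbours, Leiden resolution 2, scanpy 1.11.5, leidenalg 0.10.2, Python 3.11.15), without batch correction. Clusters of under 50% called doublets were named where the mean of their 8 best markers led by 0.05, with at least 3 markers detected and no more markers of another class among the 10 leading genes. The naming rule was set after the clusters were seen, and the study's own names were not used. Doublets were called by Scrublet in 382 wild-type (3.93%) and 303 SCD cells (2.56%) and kept.

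UMIs were summed per class and library as CPM, the count per 1000000 counts. Poisson and Clopper-Pearson intervals (95%) and exact conditional binomial intervals of ratios cover counting error only. They were tested on simulated Poisson counts without variation between cells or mice, which checks the calculation only. Classes with under 50 cells in a library have no ratio. Log2 ratios used a pseudocount of 5 CPM. Each member and its 3 most correlated genes, and the 2 highest and 2 lowest list genes of a class, could be named, and markers and sex-linked, globin, mitochondrial, ribosomal, immunoglobulin and T cell receptor genes could not be partners. One partner gene is not reported here. Clusters and their leading genes, and Epor and Csf2rb2, were named after their values were seen. The members and the lists of 81 pathway genes were chosen with earlier results of these data known.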

Additional observations from a re-analysis of the deposited data

How the results depend on the processing

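No paired analysis was possible because there was 1 mouse per genotype. Alternatives outside the 95% interval of a reported value are called moved. Of 160 alternative values of the 17 main results, 84 stayed, 73 moved and 3 shares turned, and 156 kept the direction. The 4 that did not were the 3 shares without thinning and Csf2ra in conventional DCs with median-of-ratios scaling. Of 619 values of 47 levels in single classes, 528 stayed and 590 kept the direction. Removal of barcodes shared by both libraries was chosen after seeing the data. Kit in progenitors was not run, since no such class had 50 cells in each library. Depth limits the low classes, with 4 to 48 cells in a library. The cause of each move was not tested.

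Whole-library log2 ratios follow, in the order Csf1r, Csf2ra, Csf2rb, Csf3r, Flt3 and Kit unless named. At most 5000 genes per cell gave -0.32 (Csf2ra), -0.68 (Csf2rb), -1.23 (Csf3r), -1.63 (Flt3) and -1.93 (Kit), and at least 1000 genes -0.38 (Csf2ra), -1.25 (Csf3r), -1.82 (Flt3) and -1.29 (Kit). No mitochondrial or ribosomal filter gave -0.97, -0.27, -0.65, -1.39 and -1.44 (all but Kit). Median-of-ratios scaling took out a median log2 ratio of -0.30 over genes, which raised all ratios. It gave -0.88, -0.14, -0.54, -1.27, -1.51 and -0.96, all below 0, and Csf1r and Kit lost the 2-fold call. Csf1r also lost it without the mitochondrial or ribosomal filter, and Kit with a pseudocount of 20. A pseudocount of 20 gave -1.03, -0.38, -0.73, -1.47, -1.30 and -0.98, and of 1 -1.20 (Csf1r), -1.58 (Csf3r), -1.94 (Flt3) and -1.31 (Kit). Means over cells gave -1.29, -0.50, -0.72, -1.35, -1.41 and -1.52, and thinning -1.25, -0.70, -1.34, -1.38 and -1.53 (all but Csf2ra). Without shared barcodes they were -1.24, -0.50, -0.90, -1.64, -1.83 and -1.18.

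In the main classes, Csf1r in monocytes was -1.11 with at most 5000 and -1.31 with at least 1000 genes, -1.31 without the mitochondrial or ribosomal filter, -1.12 with median-of-ratios scaling, -1.14 as mean over cells, -1.48 with total-count normalization and -1.35 at resolution 1. Csf3r in neutrophils was -2.44, -2.48 and -2.65 under the same 3 filters, -2.55 with a pseudocount of 20, -1.83 as mean over cells, -1.81 thinned, -2.42 with total-count normalization and -2.53 at resolution 1. Csf2rb in neutrophils was -0.69 with at least 1000 genes and -0.78 with a pseudocount of 20. In conventional DCs median-of-ratios scaling gave 0.068 for Csf2ra, which turned its sign, and 0.16 for Flt3, which was 0.14 thinned. In mature neutrophils median-of-ratios scaling took out a median of -0.24, so the ratios there rose.

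The difference of shares (SCD minus wild-type, percentage points) without thinning was 6.4 for Csf2ra, 0.657 for Csf2rb and 3.81 for Csf3r, all turned, and -15.6 for Flt3 and -7.22 for Kit. Thinned to 500 UMIs it was -5.62 for Csf1r, -3.88 for Csf2rb, -1.93 for Flt3 and -1.91 for Kit.

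Values in single classes (log2 ratios) also changed with the cell filters and the clustering, and the cause was not tested. Csf3r in mature neutrophils was -1.16 with at most 5000 and -1.105 with at least 1000 genes, -1.104 without called doublets, -1.16 at resolution 1 and -1.015 with members kept in the clustering, in place of -0.54. Csf1r was -1.14, -1.12, -1.09, -1.14 and -1.02 under the same settings, in place of -0.60. Csf1r also passed 2-fold in classical monocytes (-1.06 with at least 1000 genes, -1.04 thinned) and red pulp macrophages (-1.06 as mean over cells, -1.03 thinned). In red pulp macrophages Csf3r ran from -2.04 thinned to -0.75, and Csf2ra from -0.94 thinned to 0.02. Csf3r in all monocytes was -1.002 with total-count normalization and -1.13 at resolution 1, and Csf1r in all neutrophils was -2.24 with at most 5000 genes. Thinning turned the sign of Csf2rb in classical monocytes (0.15) and all monocytes (0.21), of Csf2rb nearer to mature neutrophils (0.48), of Csf2ra (0.23) and Csf3r (0.11) nearer to immature ones, and of Flt3 in mature DCs (0.18) and pDCs (0.14). The other changes of sign in single classes gave values between -0.071 and 0.098.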
